A study of Arabidopsis thaliana with 9 samples.

Results

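The comparison described here is the one between rosette leaves of *Arabidopsis thaliana* plants that received light reflected from grass (biological low R:FR, the weedy treatment) and leaves of weed-free plants. R:FR is the ratio of red to far-red light, and low R:FR is the signal by which a plant perceives neighbours before it is shaded. The comparison uses 6 of the 9 libraries of the series, 3 of each group, and the 17784 genes, of 37363 in the tables, that had at least 1 TPM in at least 3 of the 9 libraries. TPM is an expression level scaled for transcript length and for library size, so that levels of different genes may be compared.

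All plants were wild type, ecotype Columbia, and were grown for 3 weeks at R:FR 1.4, as the labels give it, under a 12-hour photoperiod. Plants of the biological low R:FR group then spent 1 week beside a surrogate weed, a stand of mixed grasses, at R:FR 0.3, whereas weed-free plants stayed at R:FR 1.4. The study's own text gives a somewhat higher weed-free ratio than the labels, which were followed here. The remaining 3 libraries came from plants given R:FR 0.3 by far-red LEDs (artificial low R:FR). Each library was made from rosette leaves of 4-week-old plants, pooled from 3 plants. A plastic tube kept the roots apart from those of the grass, and an opaque divider separated the weed-free and the biological low R:FR plants within a chamber. The time of day of harvest is not given in the sources used here, and what the grass changed besides R:FR cannot be told apart from R:FR itself.

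Phytochromes are red and far-red photoreceptors. In low R:FR the active pool of phytochrome B falls, PHYTOCHROME INTERACTING FACTORS (PIFs) are released, and they switch on genes for auxin synthesis and for transcription factors that promote or restrain elongation. This shade avoidance response lengthens petioles and stems, and is known to trade growth against defence and to alter carbon use and photosynthetic gene expression.

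Upstream sequences of 4 genes that rose are shown with short DNA motifs marked. HD-Zip II factors such as HB-2 bind sites that hold AATNATT, and PIFs bind the G-box CACGTG. Whether these factors regulate the 4 genes was not tested. Each sequence is the 250 bases before the annotated transcript start, 5′ to 3′ on the gene's own strand, from RefSeq (build TAIR10.1). Capitals mark AATNATT in the first 3 sequences and CACGTG in *FHL*. Other motifs, such as a CACATG in *YUC9*, are not marked. The windows are chr1:467881-468130 for *HFR1* (minus strand), chr4:9448864-9449113 for *HB-2* (plus), chr1:1104243-1104492 for *YUC9* (plus) and chr5:437115-437364 for *FHL* (plus).
HFR1: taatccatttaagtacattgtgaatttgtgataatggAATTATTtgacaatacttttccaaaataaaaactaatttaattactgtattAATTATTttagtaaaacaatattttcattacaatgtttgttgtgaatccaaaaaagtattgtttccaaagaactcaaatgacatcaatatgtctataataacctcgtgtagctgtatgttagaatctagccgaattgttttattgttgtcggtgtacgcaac
HB-2: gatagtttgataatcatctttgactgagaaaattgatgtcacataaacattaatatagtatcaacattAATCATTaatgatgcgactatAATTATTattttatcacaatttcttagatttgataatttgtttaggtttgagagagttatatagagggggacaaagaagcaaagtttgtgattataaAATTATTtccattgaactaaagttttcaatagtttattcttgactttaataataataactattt
YUC9: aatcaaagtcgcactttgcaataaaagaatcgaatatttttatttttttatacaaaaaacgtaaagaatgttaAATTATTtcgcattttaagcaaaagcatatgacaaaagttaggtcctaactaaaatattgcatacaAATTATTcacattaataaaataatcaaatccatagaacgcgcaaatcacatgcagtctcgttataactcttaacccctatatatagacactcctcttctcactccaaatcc
FHL: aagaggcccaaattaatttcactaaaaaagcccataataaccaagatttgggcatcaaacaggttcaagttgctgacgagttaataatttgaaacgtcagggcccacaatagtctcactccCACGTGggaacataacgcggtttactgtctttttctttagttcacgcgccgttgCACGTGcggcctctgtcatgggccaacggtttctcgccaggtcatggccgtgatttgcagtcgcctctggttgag

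AATNATT began 213 and 162 bases before the start of *HFR1*, 182, 161 and 64 bases before that of *HB-2*, and 177 and 111 bases before that of *YUC9*. CACGTG began 129 and 75 bases before the start of *FHL*. Over windows of 300 bases, reaching 50 bases past the start and read on both strands, AATNATT occurred in 40.2% of the 1095 windows of genes that rose, 29.98% of the 597 windows of genes that fell and 34.4% of all 17593 windows. The variant E-box CACATG, which PIFs also bind, occurred in 17.63%, 11.2% and 12.5% of the same windows, in the same order, and CACGTG in 9.59%, 8.21% and 8.67%. The auxin response element TGTCTC was in 13.7%, 14.9% and 13.2%, and the evening element AAAATATCT of clock-regulated genes in 2.01%, 2.68% and 3.15%. A match describes letters in a window and not a bound site, and *YUC9* was chosen for display after its values were seen. The displayed genes do not stand for all rises. In the 300-base windows *PAR1* and *HAT1* held 0 AATNATT and *PIL1* and *IAA29* 1 each, whereas *XTH27* and *IAA2* held 2 each.

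Differences are given as log2 fold changes of TPM + 1, biological low R:FR over weed-free, with their standard errors (SE), so a value of 1 is about a doubling and low levels are understated. They come from limma fitted to all 9 libraries, with p-values adjusted by the Benjamini-Hochberg method over the 17784 genes, and a gene was called at an adjusted p under 0.05. Of these genes 1702 (9.57%) were called: 1103 rose (6.2%) and 599 fell (3.37%). Counts in the gene lists below are read against these shares. Lists whose rises lie near the share of all genes include leaf growth regulators (2 of 33), pattern receptors (2 of 24), senescence (2 of 22), and ethylene and cytokinin (3 of 36). The groups did not overlap in 5281 genes, 29.7% of those tested. Of the called genes 178 rose and 52 fell by more than 2-fold, with a median of 0.72 for the rises and −0.65 for the falls. The last gene called, AT2G00870, had an adjusted p of 0.0499, and the first not called, AT1G04853, one of 0.05.

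The median of all genes tested was 0.11, so changes are read against that shift. When TPM was rescaled by TMM factors, which set the bulk of genes level, the median became 0.01, all 1702 calls kept their direction and 1530 stayed past the threshold, but the split was 1172 higher and 1363 lower (46.23% higher, against 64.81%). Quantile normalisation gave 1122 and 1185.

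The table of normalised counts, whose values were whole reads divided by a library factor, held 2169705 to 3310210 reads in biological low R:FR libraries and 1683076 to 2893820 in weed-free libraries. These totals are the depth of that table only. Mapped reads per library, which the study's text gives and which are many more, were not used here. Those counts hardly followed TPM across genes (Spearman 0.0536 to 0.0718 in biological low R:FR, 0.06 to 0.1155 in weed-free), and they were used only as a check. Whether both tables were counted with the same settings, such as the strand, is not given in the sources used here, so a gene that differs between them has no settled value. Replicate 3 of each group stood apart in clock genes. *ELF4*, an evening gene, had 141, 143 and 439 TPM in biological low R:FR replicates 1, 2 and 3, against 108, 104 and 449 TPM in weed-free replicates. *CCA1*, a morning gene, had 5.24, 3.61 and 1.47 TPM, against 4.12, 4.55 and 1.27 TPM. *TOC1*, also a clock gene, had 53.4, 38.1 and 81.4 TPM, against 22.2, 24.2 and 71.6 TPM, so it was higher in biological replicates 1 and 2. Whether the 2 groups were harvested at the same clock phase was not tested. The number of calls hung on which library was left out. It was 264 without biological replicate 1, 191 without weed-free replicate 1 and 232 without weed-free replicate 2. It was 2345 without biological replicate 3 and 2970 without weed-free replicate 3. In every one of the 6 possible omissions of 1 library 133 rises and 25 falls stayed past the threshold. The labels do not say whether replicates came from separate sowings, whereas the study's text describes independent experiments, and the p-values measure the spread between these pools. With no replicate term in the fit, that spread includes whatever set replicate 3 apart.

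**Figure D1:**
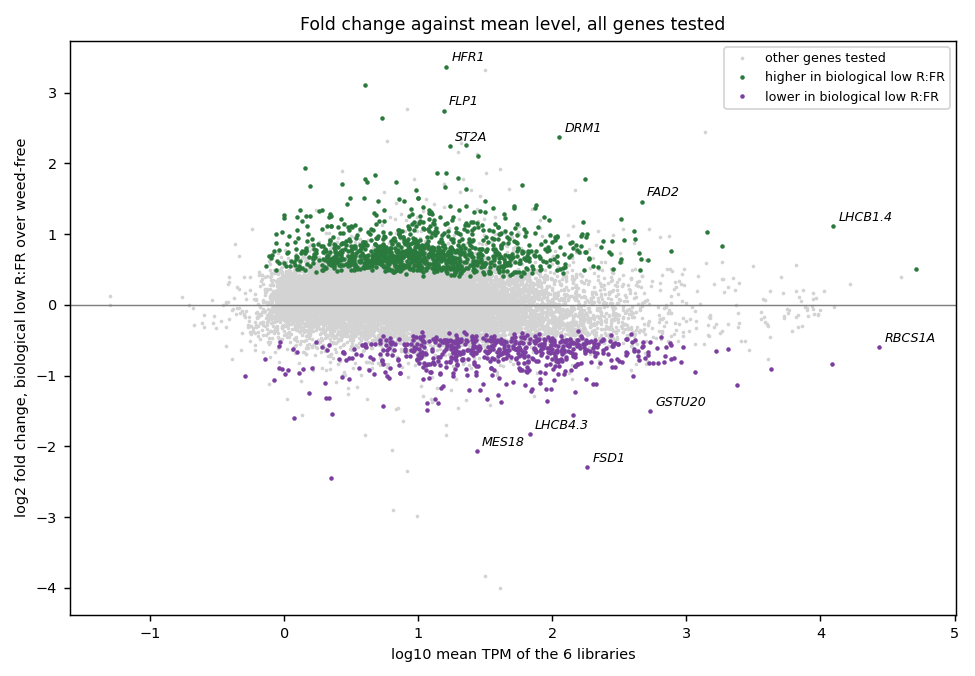
Log2 fold change (biological low R:FR over weed-free) against the log10 mean TPM of the 6 libraries, one point a gene; green, 1103 genes called higher, purple, 599 called lower, grey, other genes tested. *HFR1* lies highest among the labelled genes and *FSD1* lowest, and the most abundant transcripts include *LHCB1.4* among the rises and *RBCS1A* among the falls.

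Among genes with a mean of at least 5 TPM, *HFR1* had the largest rise. *HFR1* encodes an atypical bHLH protein that binds PIFs and limits the shade response. It had 31.6, 27.8 and 30.5 TPM in biological low R:FR leaves, against 2.07, 2.70 and 1.38 TPM in weed-free leaves. All biological libraries were about 10 times or more above every weed-free one, and the log2 fold change was 3.37 ± 0.15 (limma, adjusted p = 1.75e-06). *FLP1*, which encodes a FLOWERING-PROMOTING FACTOR-like protein, had 20.8, 25.2 and 36.9 TPM, against 2.53, 3.88 and 3.19 TPM (2.75 ± 0.35, adjusted p = 0.00616). AT5G02580, annotated as argininosuccinate lyase, had 8.87, 7.98 and 12.9 TPM, against 0.869, 0.604 and 0.667 TPM (2.65 ± 0.33, adjusted p = 0.0043). The groups were far apart for both genes. The other genes among the 15 largest rises were *DRM1*, AT2G05540 (a glycine-rich protein), *ST2A*, *PAR1*, AT4G27450 and AT3G15450 (both annotated as aluminium-induced proteins), *RTFL21*, AT5G44260 (a zinc finger protein), *ADS1* (a fatty acid desaturase), *IAA29*, *STP1* and AT4G23870, with log2 fold changes of 1.63 to 2.37. Of these AT4G27450 was on the other side of 0 in the normalised counts (−0.87 by limma and −0.83 by edgeR). Of these 15 rises 10 passed in all 6 omissions. *DRM1* and *RTFL21* did not pass without any one of the biological libraries, nor without weed-free replicate 1 or 2.

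**Figure D2:**
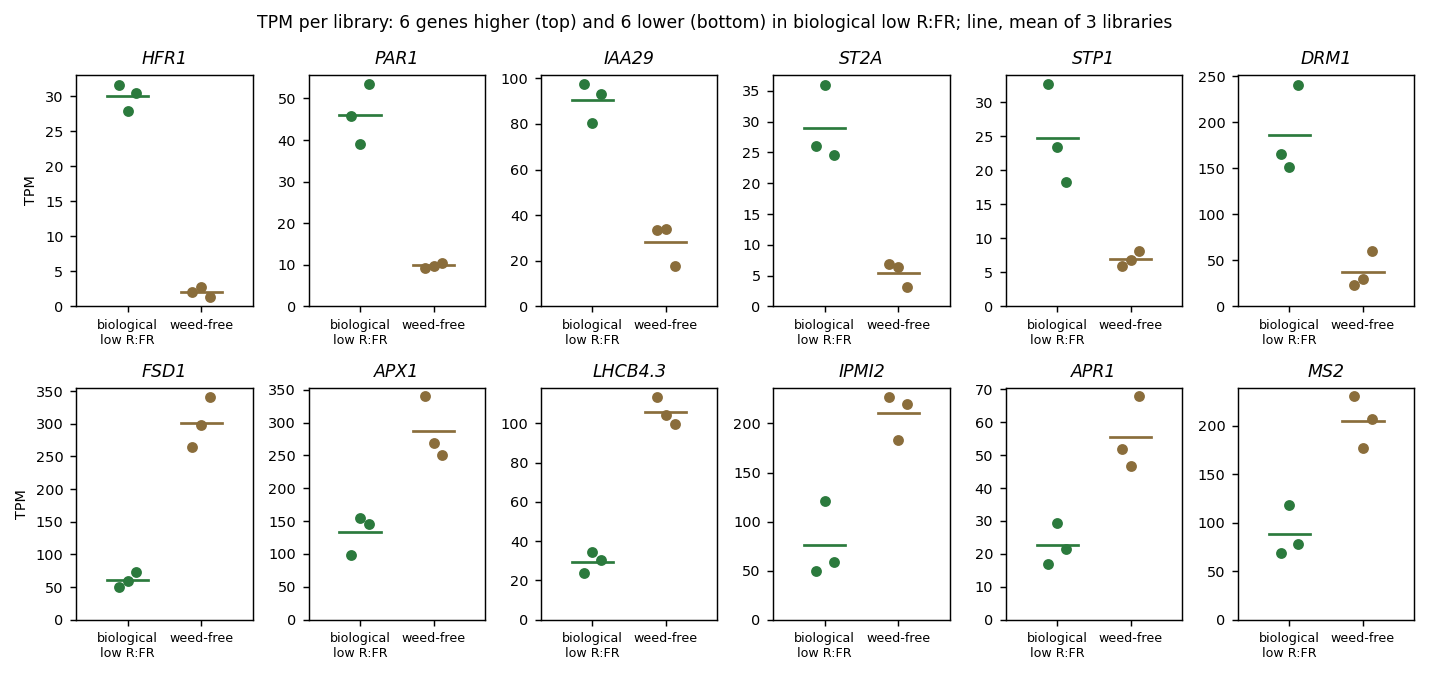
TPM of 12 genes in each library; each point is 1 library (3 of biological low R:FR in green, left, and 3 of weed-free in brown, right) and each line the mean. The groups do not overlap in any panel, nor in 1697 of all 1702 called genes. *HFR1* lies between 27.8 and 31.6 TPM in biological low R:FR, above 2.70 TPM, and *FSD1* between 50.7 and 73.7 TPM, below 264 TPM.

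Genes of light signalling rose. Of 41 tested transcription factors and phytochrome regulators of the shade response, 13 rose and none fell, with a median of 0.45 (all genes, 0.11). Of 19 tested in the normalised counts limma called 1 higher (median 0.35), and edgeR 1 of 17 (median 0.37). *HB-2* (ATHB2), an HD-Zip II factor that promotes elongation, had 77.5, 70.2 and 78.2 TPM, against 28.1, 30.1 and 25.6 TPM (1.40 ± 0.14, adjusted p = 0.00124). *PIL1*, a bHLH factor induced early in shade, had 7.27, 6.17 and 6.67 TPM, against 1.18, 1.68 and 0.925 TPM (1.78 ± 0.19, adjusted p = 0.00176). *FHL*, which carries phytochrome A into the nucleus, had 8.31, 5.21 and 7.28 TPM, against 0.963, 1.68 and 1.43 TPM (1.74 ± 0.21, adjusted p = 0.00275). In these genes the lowest biological library stood well above the highest weed-free one, and *HFR1*, *HB-2*, *PIL1*, *FHL* and *PKS2* passed in all 6 omissions. *PAR1*, a bHLH repressor of auxin-induced elongation, had 45.8, 39.0 and 53.5 TPM, against 9.34, 9.73 and 10.5 TPM (2.11 ± 0.33, adjusted p = 0.0106), and did not pass without biological replicate 1 or weed-free replicate 1 or 2. The others, listed after their values were seen, were *PAR2*, *PIL2*, *HAT1*, *PHYA*, *PHYB*, *BBX21* and *PIF4*, with rises of 0.50 to 1.18. *PIL2* lies over another gene on the opposite strand for 1525 bases, so its reads are uncertain. The count of 13 was 7 without biological replicate 1, 5 without weed-free replicate 1 and 6 without weed-free replicate 2.

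Of 50 tested auxin genes 20 rose and none fell, with a median of 0.55. In the normalised counts 2 of 21 were higher and 1 lower by limma (median 0.14), and 1 of 19 higher and 1 lower by edgeR (median 0.06). *IAA29*, a repressor of auxin response that auxin itself induces, had 97.7, 80.5 and 93.3 TPM, against 33.3, 33.8 and 17.5 TPM (1.7 ± 0.22, adjusted p = 0.00403). *SAUR22* had 69.0, 53.8 and 64.2 TPM, against 28.2, 24.8 and 21.6 TPM (1.29 ± 0.16, adjusted p = 0.00277), and *SAUR19* had 26.9, 20.9 and 28.6 TPM, against 12.4, 9.02 and 9.93 TPM (1.21 ± 0.15, adjusted p = 0.00327). SAUR proteins of this cluster activate plasma membrane proton pumps and loosen the wall. Their coding sequences are nearly the same, so reads may have been shared between *SAUR19*, *SAUR20*, *SAUR22*, *SAUR23* and *SAUR24*. *GH3.5*, which conjugates auxin to amino acids, had 4.69, 5.13 and 3.52 TPM, against 1.8, 1.27 and 1.49 TPM (1.1 ± 0.15, adjusted p = 0.0041). Among those picked after their values were seen were the auxin synthesis genes *YUC8* (1.11 ± 0.19) and *YUC9* (1.51 ± 0.27), and the transport genes *PIN3* (0.92 ± 0.19), *AUX1* (0.90 ± 0.18), *ABCB19* (0.85 ± 0.20) and *LAX2* (0.68 ± 0.18). *YUC9* was low throughout and had 6.06, 2.98 and 6.03 TPM in grass-lit leaves, against 1.31, 1.64 and 0.403 TPM. The count of 20 was 9 without biological replicate 1, 7 without weed-free replicate 1 and 8 without weed-free replicate 2.

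Of 31 tested gibberellin and brassinosteroid genes 8 rose and none fell (median 0.35). None was called in the normalised counts, of 9 by limma (median 0.03) or of 8 by edgeR (median 0.13). *CPD*, a cytochrome P450 of brassinosteroid synthesis, had 61.3, 39.3 and 35.7 TPM, against 17.1, 16.8 and 17.56 TPM (1.31 ± 0.18, adjusted p = 0.00403). Its weed-free values hardly varied and all biological ones were above them. Other brassinosteroid synthesis genes that rose were *DWF1* (1.08 ± 0.20) and *DET2* (0.87 ± 0.17), and *BR6OX2* (1.08 ± 0.25), chosen after its values were seen. In the normalised counts *DET2* was on the other side of 0 (−0.20 by limma and −0.13 by edgeR). The gibberellin genes that rose do not share one role: *GASA1* (0.77 ± 0.14) is induced by the hormone, and, chosen after their values were seen, *GAI* (0.67 ± 0.18) and *RGL3* (0.87 ± 0.18) encode DELLA repressors of its response, while *GA2OX6* (0.80 ± 0.18) encodes an enzyme that inactivates it. The 8 calls were 2 without biological replicate 1 or weed-free replicate 1, and 1 without weed-free replicate 2, and *CPD* was called in each.

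Ethylene and cytokinin genes went both ways, with 3 of 36 higher and 4 lower (median 0.17). *ACS8*, for an enzyme of ethylene synthesis, rose by 1.1 ± 0.22, *EIL1*, an ethylene transcription factor, by 0.66 ± 0.14, and the ethylene receptor gene *ERS1* by 0.57 ± 0.16. *IPT3*, for a cytokinin synthesis enzyme, had 9.43, 11.6 and 7.34 TPM, against 21.4, 19.1 and 17.64 TPM (−0.98 ± 0.18, adjusted p = 0.0116). *ARR16*, a cytokinin-induced response regulator, had 5.96, 3.97 and 4.07 TPM, against 11.4, 8.44 and 10.03 TPM (−0.96 ± 0.18, adjusted p = 0.0119). The response regulators *ARR6* (−0.96 ± 0.22) and *ARR7* (−0.72 ± 0.16), chosen after their values were seen, fell too. All 4 falls lie thus in cytokinin synthesis and primary response. Without biological replicate 1, weed-free replicate 1 or weed-free replicate 2 the counts were 0 higher and 1 lower, 1 higher and 0 lower, and 0 higher and 1 lower.

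The cell wall list rose most in median among the larger lists (0.68): 12 of 28 tested wall-loosening genes rose and 1 fell. The genes are mainly xyloglucan endotransglucosylases (XTH), which cut and rejoin wall xyloglucan, and expansins. *XTH24* had 8.93, 7.99 and 7.49 TPM, against 3.04, 2.77 and 3.25 TPM (1.18 ± 0.13, adjusted p = 0.00176). *XTH27* had 43.2, 31.1 and 38.0 TPM, against 13.1, 13.1 and 16.8 TPM (1.32 ± 0.17, adjusted p = 0.00316). *XTH15* had 3.44, 1.53 and 3.80 TPM, against 0.268, 0 and 0.296 TPM (1.68 ± 0.22, adjusted p = 0.00403), and overlaps a gene on the opposite strand for 382 bases. *XTH30* rose by 1.01 ± 0.14, and the expansin-like gene *EXLA1*, chosen after its values were seen, by 1.51 ± 0.22. *XTH31* was the exception, with 11.3, 6.30 and 4.29 TPM, against 26.3, 19.4 and 12.5 TPM (−1.33 ± 0.33, adjusted p = 0.0388), and the groups came close to each other there; it was 0.12 in the normalised counts by limma. Without biological replicate 1, weed-free replicate 1 or weed-free replicate 2, 5, 7 and 6 genes were higher. Limma on the normalised counts called 1 of 8 higher (median 0.27), and edgeR 2 of 7 (median 0.53).

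Of 22 cellulose and wall polymer genes 7 rose and none fell (median 0.45). None was called in the normalised counts, of 10 by limma (median 0.24) or of 7 by edgeR (median 0.08). *COB*, which orients cellulose deposition, had 42.5, 30.7 and 26.3 TPM, against 16.9, 15.8 and 18.0 TPM (0.91 ± 0.16, adjusted p = 0.0108). *CESA3*, a subunit of primary wall cellulose synthase, rose by 0.71 ± 0.16, *KOR1*, a membrane glucanase, by 0.64 ± 0.16, and *FLA9*, a fasciclin-like arabinogalactan protein, by 1.19 ± 0.29. *CESA3* was on the other side of 0 in the normalised counts (−0.17 by limma and −0.32 by edgeR). Without biological replicate 1 there was 1 call, *COB*, and without weed-free replicate 1 or 2 none.

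Aquaporins, the water channels of plasma membrane and vacuole, had 6 of 15 higher and none lower (median 0.42). *PIP1;5* had 60.1, 44.5 and 53.5 TPM, against 18.6, 19.3 and 20.7 TPM (1.38 ± 0.16, adjusted p = 0.00275). *DELTA-TIP* had 74.3, 57.6 and 93.9 TPM, against 31.9, 33.4 and 33.2 TPM (1.14 ± 0.17, adjusted p = 0.00536), and *PIP2;6* had 125, 87.1 and 89.1 TPM, against 48.8, 46.7 and 49.6 TPM (1.02 ± 0.16, adjusted p = 0.00682). The weed-free libraries were tight in each, and these calls and that of *PIP1C* (0.89 ± 0.13) held in all 6 omissions. In the normalised counts, however, *DELTA-TIP* was on the other side of 0 (−0.39 by limma and −0.38 by edgeR). Of 40 cuticle, wax and lipid genes 3 rose, near the 6.2% of all genes tested. Among them *FAD2*, the oleate desaturase of the endoplasmic reticulum, had 865, 562 and 619 TPM, against 237, 237 and 255 TPM (1.46 ± 0.18, adjusted p = 0.00275). The actin gene *ACT8* had 279, 216 and 215 TPM, against 119, 113 and 130 TPM (0.96 ± 0.14, adjusted p = 0.00518), the only call among 33 cytoskeleton genes.

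**Figure D3:**
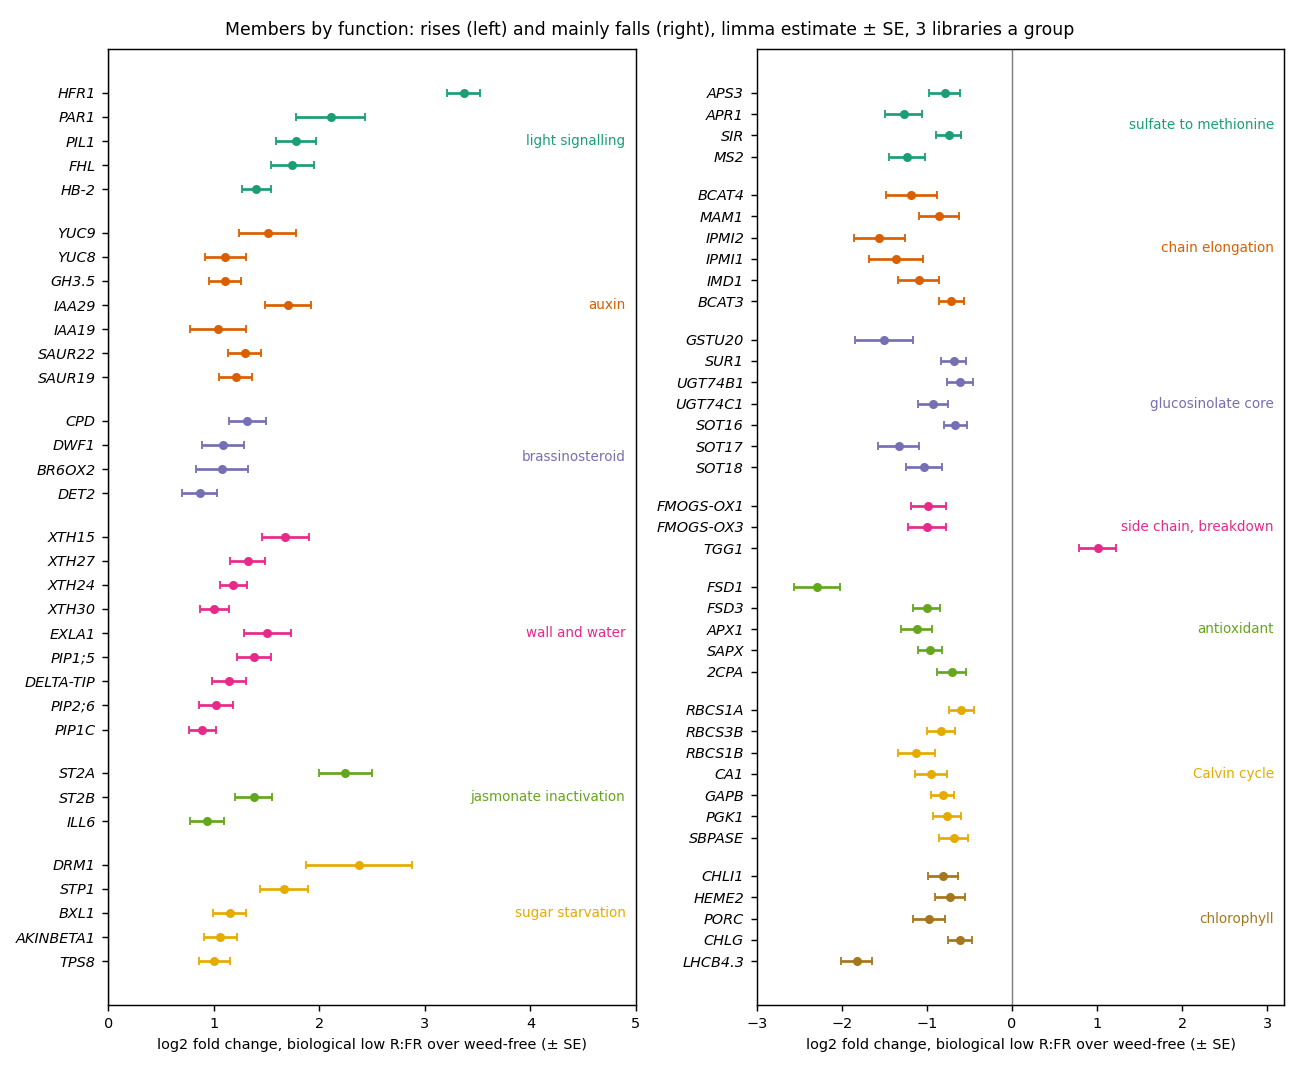
Log2 fold change ± SE (limma, 3 libraries a group; biological low R:FR over weed-free) of single genes grouped by function, rises on the left and mainly falls on the right, where *TGG1* stands on the other side of 0. *HFR1* at 3.37 and *FSD1* at −2.29 are the extremes.

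In the jasmonate pathway, the inactivation genes *ST2A* and *ILL6* rose. Of 5 tested genes of the inactivation list 3 rose and none fell, and 7 of the 12 listed were below 1 TPM in all libraries. These 3 are among the 8 genes that the study chose on these same samples. *ST2A*, a sulfotransferase that inactivates hydroxyjasmonate, had 26.1, 36.0 and 24.6 TPM, against 6.94, 6.41 and 3.09 TPM (2.25 ± 0.25, adjusted p = 0.00275). Its neighbour *ST2B* had 14.5, 17.1 and 16.4 TPM, against 5.65, 6.98 and 4.22 TPM (1.38 ± 0.18, adjusted p = 0.00327). *ST2B* is the third rise of the list, but the paper knows of no evidence that it acts in the jasmonate pathway. *ILL6*, which cleaves jasmonoyl-isoleucine, had 2.49, 1.83 and 3.01 TPM, against 0.833, 0.548 and 0.997 TPM (0.94 ± 0.16, adjusted p = 0.0102). The calls were 3 in each omission but that of weed-free replicate 2, where they were 2. In jasmonate synthesis 1 of 19 genes rose and 3 fell (median −0.30). The gene that rose was *FAD3*, the linoleate desaturase of the endoplasmic reticulum, with 139, 76.0 and 109 TPM, against 36.6, 38.5 and 45.5 TPM (1.37 ± 0.20, adjusted p = 0.00578). Lower were its plastid counterpart *FAD8* (−0.68 ± 0.17), the allene oxide cyclase gene *AOC2* (−0.66 ± 0.13) and *JMT*, which methylates jasmonate (−0.90 ± 0.25), and no fall was called without biological replicate 1, weed-free replicate 1 or weed-free replicate 2. Under TMM rescaling 7 synthesis genes were lower. In the normalised counts 7 synthesis genes could be tested and none was called by limma or edgeR, the median was 0.23 by either tool, and *AOC2* was on the other side of 0 (0.28 by limma and 0.32 by edgeR).

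Defence and stress genes held few calls. Of 18 jasmonate response and defence genes only *JAZ9*, a repressor of jasmonate response, was called (−1.05 ± 0.23, adjusted p = 0.0244). Of 28 salicylic acid and immunity genes 1 fell, *SARD4*, an enzyme of pipecolate synthesis (−0.50 ± 0.11), and of 24 pattern receptor genes 2 rose, the chitin receptor *LYK4* (0.73 ± 0.18) and the flagellin receptor *FLS2* (0.75 ± 0.20). None of these 4 calls held without biological replicate 1 or weed-free replicate 1 or 2. Calls were 0 of 13 for singlet oxygen signalling (median 0.06) and 0 of 25 for heat shock (median −0.04), by limma, with 1 gene in each list at an unadjusted p under 0.05. Without weed-free replicate 3 there was 1 call in each list, and of 7 singlet oxygen genes in the normalised counts limma and edgeR each called 1. Of 31 rapid stress factors 1 rose, *WRKY22* (0.57 ± 0.15), and of 45 cold and abscisic acid genes 1 rose, *NCED3*, the abscisic acid synthesis gene (0.86 ± 0.18), with a list median of 0.30. *WRKY22* passed in none of the omissions, and *NCED3* did not without biological replicate 1 or weed-free replicate 2.

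The study chose 8 genes as induced on these same samples, so their direction here is no independent evidence. Of them *ST2A*, *ST2B*, *ILL6*, *PUB25* (0.76 ± 0.14, adjusted p = 0.0109) and AT3G10720 (0.78 ± 0.16, adjusted p = 0.0172) rose. *PUB25* encodes a ubiquitin ligase and AT3G10720 a pectin methylesterase family protein. *XTH22* had 2.22, 1.27 and 4.66 TPM, against 0.521, 0.803 and 1.34 TPM (0.90 ± 0.29, adjusted p = 0.0745). AT5G24810, an ABC1 family protein, differed by 0.48 ± 0.23 (adjusted p = 0.191) and AT4G01870, a TolB-like protein, by −0.08 ± 0.17 (adjusted p = 0.78), and in each of these 3 genes the groups overlapped.

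Genes of carbon starvation and dormancy rose, 13 of 43 with none lower (median 0.43). The listed genes *DIN1*, *DIN2*, *DIN6* and *DRM2* were not among the calls. In the normalised counts 0 of 15 were called by limma (median 0.23), and 1 of 14 was higher by edgeR (median 0.19). *STP1*, a monosaccharide importer repressed by sugar, had 32.8, 23.4 and 18.3 TPM, against 5.93, 6.84 and 8.18 TPM (1.66 ± 0.22, adjusted p = 0.00426), and overlaps an opposite gene for 312 bases. *BXL1*, a β-xylosidase induced by sugar shortage, had 8.58, 6.70 and 5.81 TPM, against 2.62, 2.25 and 2.91 TPM (1.15 ± 0.15, adjusted p = 0.00403). *AKINBETA1*, a subunit of the energy-sensing SnRK1 kinase, had 34.1, 39.1 and 29.6 TPM, against 16.4, 17.44 and 13.8 TPM (1.06 ± 0.16, adjusted p = 0.00578). *TPS8*, a trehalose phosphate synthase family gene, had 33.0, 29.0 and 21.7 TPM, against 13.1, 12.9 and 13.7 TPM (1.01 ± 0.15, adjusted p = 0.00578). The groups were apart in all 4 genes, which passed in each omission. *DRM1*, a dormancy-associated gene, had 166, 152 and 241 TPM, against 23.1, 29.3 and 59.8 TPM (2.37 ± 0.50, adjusted p = 0.032). Picked after their values were seen, *DIN10*, for a raffinose synthase family protein of dark-induced genes, rose by 1.15 ± 0.23, the transcription factor gene *BZIP1* by 0.93 ± 0.17 and *TPS11* by 0.95 ± 0.22. The count was 5 without biological replicate 1 and 6 without either weed-free replicate 1 or 2.

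In starch and sucrose metabolism 4 of 41 fell and none rose (median −0.23). *ADG1*, the small subunit of ADP-glucose pyrophosphorylase, had 73.7, 104 and 108 TPM, against 160, 159 and 152 TPM (−0.73 ± 0.14, adjusted p = 0.0153). *LSF2*, a glucan phosphatase, fell by 0.65 on the log2 scale, *SPS4F*, a sucrose phosphate synthase, by 0.71 and *ISA2*, a debranching enzyme subunit, by 0.51. No call remained without weed-free replicate 1 or 2, and TMM rescaling gave 9. Of 22 senescence genes 2 rose, *XTH24* and *SAG20* (0.57 ± 0.16).

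Transcripts of the Calvin cycle and photorespiration fell, 20 of 40 with none higher, and 37 of 40 values were negative (median −0.56). *RBCS1A*, the most abundant gene of the Rubisco small subunit, had 19120, 21130 and 24970 TPM, against 33210, 34830 and 30110 TPM (−0.60 ± 0.15, adjusted p = 0.0297). *RBCS3B* had 7238, 8949 and 10060 TPM, against 16180, 16580 and 13800 TPM (−0.84 ± 0.16, adjusted p = 0.0144). *RBCS1B* had 1134, 1320 and 2143 TPM, against 3119, 3222 and 3338 TPM (−1.13 ± 0.22, adjusted p = 0.0144). These gene copies are nearly the same in sequence, so the shares between them are uncertain, but each was lower in all 3 biological libraries, with replicate 1 lowest. *GAPB*, a subunit of the plastid glyceraldehyde phosphate dehydrogenase, had 397, 455 and 470 TPM, against 847, 785 and 698 TPM (−0.81 ± 0.13, adjusted p = 0.00826). *CA1*, carbonic anhydrase, had 635, 877 and 872 TPM, against 1520, 1771 and 1299 TPM (−0.95 ± 0.19, adjusted p = 0.0157). *DIT1*, a plastid dicarboxylate transporter of photorespiratory nitrogen recycling, had 58.1, 66.9 and 83.4 TPM, against 123, 127 and 121 TPM (−0.84 ± 0.14, adjusted p = 0.00812), and of the list it alone passed in all 6 omissions. The 20 calls were 2 without biological replicate 1, 13 without biological replicate 2, 1 without weed-free replicate 1 and 3 without weed-free replicate 2. Limma on the normalised counts called 11 of 35 lower (median −0.70), and edgeR 10 of 34 (median −0.73). The summed level of 10 mesophyll markers, *RBCS1A*, *RBCS3B* and *CA1* among them, was 68620 to 74870 TPM, against 76130 to 101800 TPM. Of the 10, 3 were called, all lower. *RBCS1A*, *RBCS3B* and *CA1* are among the falls above, so the sum is no separate measure of mesophyll content. In such bulk samples fewer cells of a type and less RNA per cell cannot be told apart.

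Genes for the light reactions held fewer falls. Of 34 nuclear photosystem genes 5 fell and none rose (median −0.26, 33 of 34 negative), among them the ferredoxin gene *FD2*, with 2255, 3342 and 3386 TPM, against 6387, 6032 and 4369 TPM (−0.91 ± 0.20, adjusted p = 0.0215). The ATP synthase genes *ATPD* (−0.62 ± 0.15) and *ATPC1* (−0.59 ± 0.15) and *PSBO2*, of the oxygen-evolving complex (−0.65 ± 0.16), fell too. None of these falls was called without biological replicate 1, weed-free replicate 1 or weed-free replicate 2, and 9 were without biological replicate 3. Of 32 chlorophyll and tetrapyrrole genes 7 fell (median −0.35), such as *PORC*, a light-dependent protochlorophyllide reductase, with 58.1, 82.3 and 109 TPM, against 166, 165 and 148 TPM (−0.98 ± 0.19, adjusted p = 0.0139), but 0.020 by limma in the normalised counts. *CHLI1*, a magnesium chelatase subunit, fell by 0.82, *HEME2* by 0.73 and the chlorophyll synthase *CHLG* by 0.62 on the log2 scale. The 7 calls were 1 without biological replicate 1, 2 without biological replicate 2, 13 without biological replicate 3 and 0 without weed-free replicate 1 or 2. Of 27 in the normalised counts limma and edgeR each called 1 lower (medians −0.37 and −0.42). Of 25 photoprotection genes 4 fell, including *PSBS*, of energy-dependent quenching (−0.75 ± 0.19), and *VAR1*, of a thylakoid protease (−0.58 ± 0.14), and of 33 genes for carotenoids and other isoprenoids *DXR* alone fell (−0.56 ± 0.12). Neither of these lists kept a call without biological replicate 1 or weed-free replicate 1 or 2.

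The antenna genes split. *LHCB4.3*, an antenna gene that responds to light intensity, had 23.59, 34.3 and 30.2 TPM, against 114, 104 and 99.5 TPM (−1.83 ± 0.19, adjusted p = 0.00128), and passed in every omission. *LHCA6* fell too (−0.73 ± 0.15). In contrast *LHCB1.4* had 20140, 17250 and 13350 TPM, against 9203, 9240 and 5409 TPM (1.11 ± 0.26, adjusted p = 0.0285), and *LHCB1.3* had 68370, 56330 and 57190 TPM, against 43330, 44150 and 40320 TPM (0.50 ± 0.14, adjusted p = 0.0421). These copies of *LHCB1* share sequence with others of the family. Under TMM rescaling neither rise was called (adjusted p = 0.0647 for *LHCB1.4* and 0.195 for *LHCB1.3*), nor were they without biological replicate 1 or 2 or weed-free replicate 1 or 2. Of 113 chloroplast-encoded genes 2 rose, *psbJ* (0.52 ± 0.13) and *psbL* (0.58 ± 0.15), small subunits of photosystem II, and 2 fell, the ribosomal protein genes *rps3* (−0.77 ± 0.12) and *rpl22* (−0.66 ± 0.14). Of 25 mitochondrion-encoded genes the ATP synthase genes *atp9* (0.79 ± 0.18) and *atp1* (0.62 ± 0.16) rose. The chloroplast counts lie under the 6.2% of rises and the 3.37% of falls over all genes, and the mitochondrial rises near the former share. Of these organelle genes *rps3* alone passed in all 6 omissions.

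Antioxidant enzymes were lower: 9 of 37 fell and none rose (median −0.30). *FSD1*, an iron superoxide dismutase, showed the largest fall among genes with a mean of at least 5 TPM, with 50.7, 58.8 and 73.7 TPM, against 264, 298 and 340 TPM (−2.29 ± 0.27, adjusted p = 0.00403). The highest biological library was far under the lowest weed-free one. *APX1*, the cytosolic ascorbate peroxidase, had 98.1, 155 and 146 TPM, against 341, 269 and 251 TPM (−1.12 ± 0.18, adjusted p = 0.00804). *FSD3*, a superoxide dismutase of plastid nucleoids, had 9.68, 10.5 and 15.1 TPM, against 23.1, 26.2 and 23.5 TPM (−1.01 ± 0.16, adjusted p = 0.00685), and *SAPX*, the stromal ascorbate peroxidase, had 9.60, 13.8 and 12.8 TPM, against 26.0, 25.3 and 21.8 TPM (−0.96 ± 0.14, adjusted p = 0.00578). These 4 passed in all 6 omissions. Chosen after their values were seen, the peroxiredoxins *2CPA* (−0.71 ± 0.17) and *2CPB* (−0.59 ± 0.15) fell as well. The 9 calls were 4 without biological replicate 1 or weed-free replicate 1 or 2. Of 24 in the normalised counts limma and edgeR each called 2 lower and 1 higher (medians −0.24 and −0.32). Among 33 copper and iron genes 3 rose and 3 fell. The copper importer *COPT1* had 94.8, 62.1 and 43.6 TPM, against 31.1, 32.0 and 29.4 TPM (1.02 ± 0.23, adjusted p = 0.0242), and *NAS1*, which makes the metal chelator nicotianamine, had 8.29, 9.73 and 4.38 TPM, against 22.4, 19.5 and 19.1 TPM (−1.39 ± 0.27, adjusted p = 0.018). None of the 6 calls held without biological replicate 1 or weed-free replicate 1 or 2.

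Glucosinolate genes fell, 18 of 41 with 1 higher, and this list had the lowest median of all (−0.61). Glucosinolates are sulfur-rich defence compounds, and the aliphatic ones are made from methionine by chain elongation. *IPMI2*, of chain elongation, had 49.3, 121 and 58.6 TPM, against 227, 184 and 220 TPM (−1.56 ± 0.30, adjusted p = 0.0187). *SOT17*, a sulfotransferase of the last core step, had 13.6, 26.6 and 14.9 TPM, against 49.7, 37.5 and 51.6 TPM (−1.33 ± 0.24, adjusted p = 0.013). *UGT74C1*, a glucosyltransferase, had 36.6, 52.5 and 42.3 TPM, against 86.9, 73.4 and 91.9 TPM (−0.93 ± 0.18, adjusted p = 0.0131), but 0.29 by limma and 0.27 by edgeR in the normalised counts. In these genes biological replicate 2 was the highest of its group and weed-free replicate 2 the lowest of its own, yet the groups did not overlap. *IPMI1* (−1.36 ± 0.32), *BCAT3* (−0.71 ± 0.14) and *SOT16* (−0.67 ± 0.14) fell too, as did *GSTU20*, a glutathione transferase tied to glucosinolate synthesis, with 187, 496 and 206 TPM, against 865, 691 and 737 TPM (−1.50 ± 0.34, adjusted p = 0.0297). The regulators *MYB29* (−0.68 ± 0.17), *MYB76* (−0.92 ± 0.26) and *MYB34* (−0.80 ± 0.17), chosen after their values were seen, were lower. The exception was *TGG1*, a myrosinase that breaks glucosinolates down and is made in idioblasts and guard cells, with 354, 209 and 169 TPM, against 120, 123 and 103 TPM (1.01 ± 0.22, adjusted p = 0.0233). The 18 falls were 2 without biological replicate 1, 0 without weed-free replicate 1, 4 without weed-free replicate 2 and 12 without weed-free replicate 3. Limma on the normalised counts called 2 of 22 lower (median −0.36), and edgeR 2 of 21 (median −0.20).

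Sulfur assimilation, which feeds these compounds, had 4 of 29 genes lower and none higher (median −0.25). *APR1*, which reduces activated sulfate, had 17.1, 29.4 and 21.4 TPM, against 51.7, 46.7 and 67.9 TPM (−1.27 ± 0.22, adjusted p = 0.0106), and passed in all 6 omissions. *SIR*, sulfite reductase, had 33.0, 49.8 and 38.1 TPM, against 73.9, 63.6 and 64.7 TPM (−0.74 ± 0.15, adjusted p = 0.0162). *APS3*, an ATP sulfurylase, fell by 0.79 and *LSU1*, a sulfur starvation gene, by 1.32 on the log2 scale. *MS2*, a methionine synthase, had 68.2, 118 and 78.4 TPM, against 231, 176 and 207 TPM (−1.24 ± 0.21, adjusted p = 0.0106), and was not called without biological replicate 1 or weed-free replicate 1. The 4 calls were 1 without biological replicate 1 or weed-free replicate 2, and 2 without weed-free replicate 1. In nitrogen assimilation the nitrite reductase gene *NIR1* (−0.62 ± 0.13) and the plastid glutamine synthetase gene *GS2* (−0.66 ± 0.16) fell and *LBD37*, a repressor of nitrate genes, rose (0.46 ± 0.13, but −0.083 by limma in the normalised counts), of 30 tested. Of 16 phosphate starvation genes 3 rose: *GDPD1* (0.87 ± 0.18), *MGD2*, of galactolipid synthesis (0.64 ± 0.14), and the phosphatase gene *PAP12* (0.80 ± 0.20). None of these calls in nitrogen and phosphate held without biological replicate 1 or weed-free replicate 1 or 2.

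Among ribosomal protein genes falls outnumbered rises. Of 273 ribosomal protein genes annotated as cytosolic, or with no compartment given, 87 fell and 1 rose, and 242 values were negative (median −0.40). AT3G16780, for a protein of the L19e family, had 21.0, 23.3 and 31.6 TPM, against 46.1, 49.7 and 48.8 TPM (−0.92 ± 0.15, adjusted p = 0.00685). AT2G20450, for L14, had 35.3, 34.0 and 50.9 TPM, against 74.7, 73.0 and 78.5 TPM (−0.92 ± 0.15, adjusted p = 0.00812). In both, biological replicate 3 was nearest to the weed-free level, but the groups were apart in all libraries. The gene that rose, *RPL18AA* (0.41 ± 0.12), and one of those that fell, AT1G29965 (−0.86 ± 0.15), share 629 bases on the same strand, so their reads are hard to assign. The 87 falls were 4 without biological replicate 1 or weed-free replicate 1, 3 without weed-free replicate 2, 32 without biological replicate 2 and 162 without biological replicate 3, and TMM rescaling gave 153. Limma on the normalised counts called 9 of 122 lower and 2 higher (median −0.50), and edgeR 6 of 116 lower (median −0.47). Nuclear genes of plastid ribosomal proteins were not called by limma (14 at an unadjusted p under 0.05, and none called by edgeR), but all 18 were negative (median −0.49), and 15 fell without biological replicate 3 and 2 under TMM rescaling. Of 13 mitochondrial ones 1 fell, *RPS19* (−0.50 ± 0.13). Plastid chaperones were lower: *Cpn60beta2* had 4.88, 5.46 and 7.94 TPM, against 16.9, 18.1 and 16.7 TPM (−1.38 ± 0.16, adjusted p = 0.00275; 0.064 by limma and 0.055 by edgeR in the normalised counts), and *cpHsc70-2* had 15.4, 22.4 and 32.6 TPM, against 59.0, 59.8 and 60.9 TPM (−1.38 ± 0.21, adjusted p = 0.00682). Chosen after their values were seen, the chaperonin gene *CPN60A* (−1.06 ± 0.20) and the ribosome scaffold gene *RACK1C_AT* (−1.20 ± 0.18) fell as well.

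The remaining lists held few calls in number, but not all were low in share. Rises in clock outputs and flowering lay above the 6.2% of all genes. Flavonoids and anthocyanins lay above that share and above the 3.37% of falls, and so did the 1 lignin fall above the latter. Among 24 clock genes 21 values were positive (median 0.27). Of 24 clock genes *RVE4*, a morning-phased activator, rose (0.79 ± 0.21), but not under TMM rescaling, and of 22 clock output and flowering genes 3 rose: *COL5*, a CONSTANS-like factor (0.83 ± 0.14), *TEM1*, a repressor of flowering (0.76 ± 0.15), and *SPL3*, a promoter of it (0.89 ± 0.24), which overlaps an opposite gene for 955 bases. Of 44 cell division and histone genes *CYCD3;3*, a D-type cyclin, fell (−0.55 ± 0.14), and of 33 leaf growth regulators *LNG2* (0.63 ± 0.17), which promotes elongation along the leaf axis, and *PHV*, an adaxial identity factor (0.53 ± 0.14), rose. Among 27 flavonoid and anthocyanin genes 3 rose and 2 fell. The falls were *FLS1*, flavonol synthase (−0.78 ± 0.18), and *MYB75*, an anthocyanin activator (−0.97 ± 0.27), and the rises *KFB20*, whose product targets the first enzyme of the pathway for breakdown (1.02 ± 0.22), *CPC*, a repressor (0.55 ± 0.12), and *LBD37*. Of 12 lignin genes *CAD9* fell (−0.53 ± 0.13). *MES18*, annotated as a methyl esterase, had the second largest fall among genes with a mean of at least 5 TPM, with 9.10, 6.41 and 15.2 TPM, against 42.5, 37.0 and 53.0 TPM (−2.07 ± 0.25, adjusted p = 0.00334), and overlaps an opposite gene for 190 bases. In the normalised counts it was on the other side of 0 (0.13 by limma and 0.12 by edgeR). Of the very abundant genes, *CP5*, for a lipid transfer superfamily protein, had 2625, 1762 and 1453 TPM, against 936, 915 and 911 TPM (1.03 ± 0.19, adjusted p = 0.0119), and *TCTP*, a growth regulator, had 2922, 2009 and 2186 TPM, against 1200.0, 1199 and 1557 TPM (0.84 ± 0.16, adjusted p = 0.0147). Of the genes named in this group *COL5* and *MES18* passed in all 6 omissions, and the others were lost without weed-free replicate 2. Also among the 15 largest falls were AT2G36885, annotated as a translation initiation factor (−1.49 ± 0.23), and AT4G15620, of an uncharacterised family (−1.43 ± 0.23). Of those 15 falls 8 passed in all 6 omissions.

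**Figure D4:**
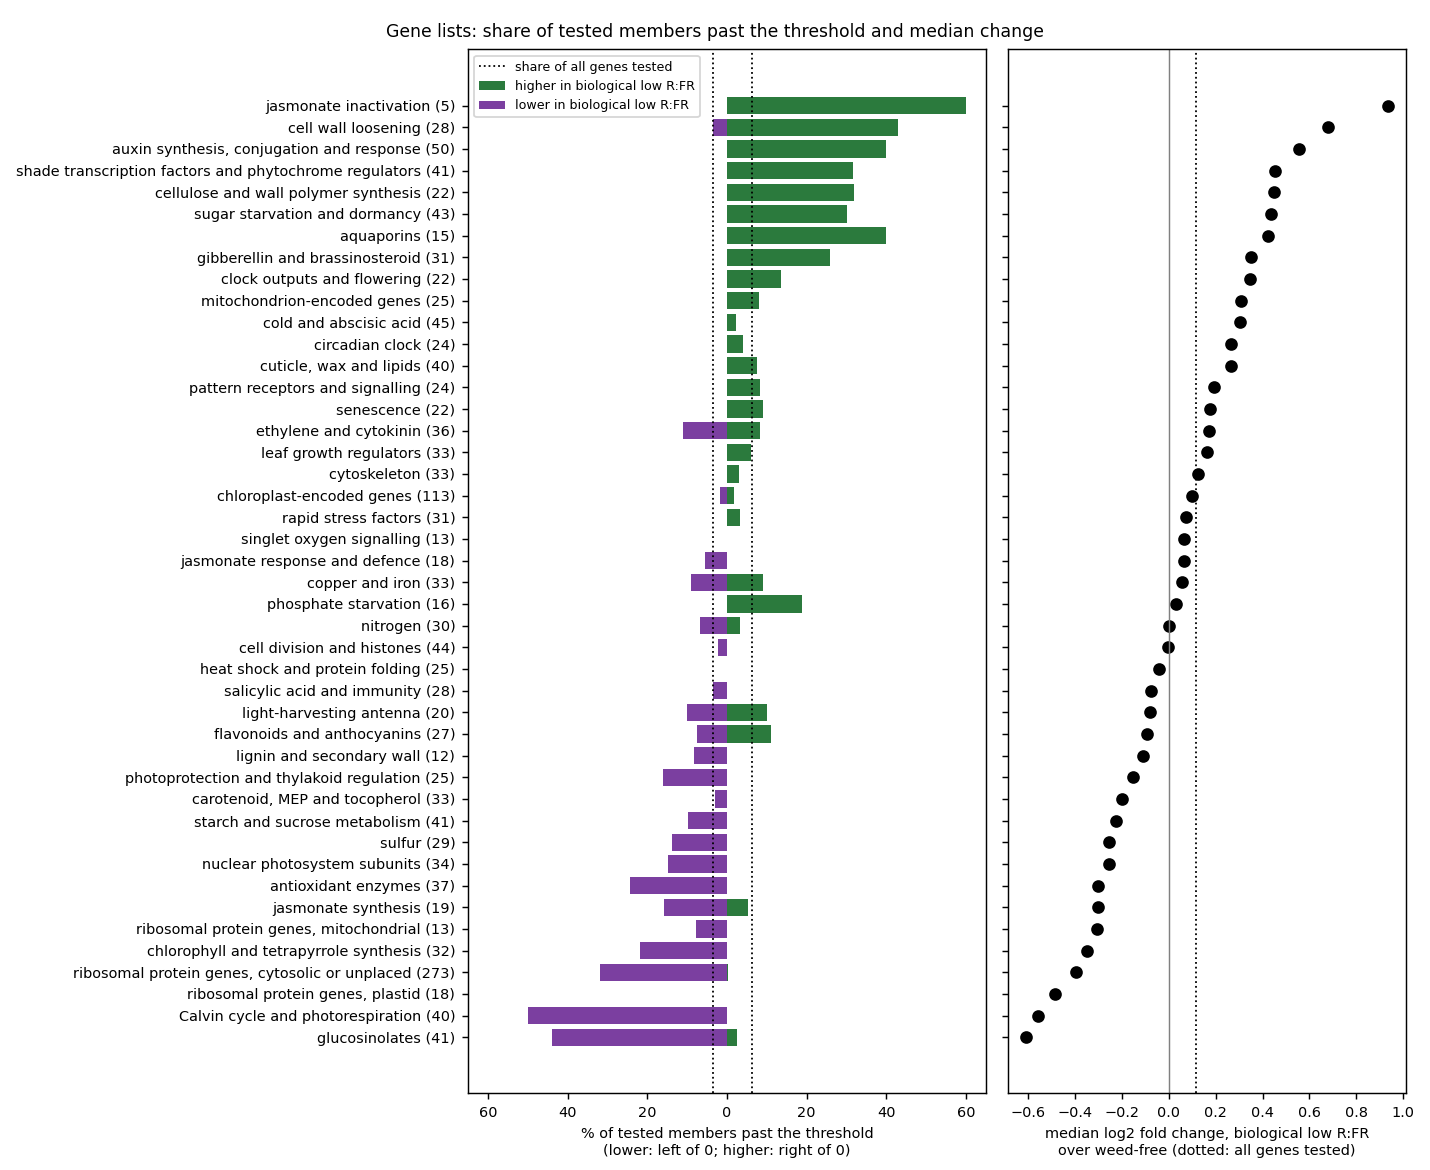
Left, percentage of the tested members of each gene list (number in parentheses) called higher (green, right of 0) or lower (purple, left of 0) in biological low R:FR, with dotted lines at the 6.2% and 3.37% of all genes tested. Right, the median log2 fold change of each list, with a dotted line at the 0.11 of all genes; jasmonate inactivation lies at the top and glucosinolates at the bottom, at −0.61.

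Markers of the sampled tissue were checked beside these results. Markers of root summed to 21.7 to 24.3 TPM, against 18.65 to 23.8 TPM, and those of meristem and flower to 6.87 to 9.98 TPM, against 5.35 to 7.78 TPM. Of the defining genes 7 of 19 root markers, with *IRT1*, *COBL9* and *EXPA7* among them, and 9 of 16 meristem and flower markers, with *STM*, *CLV3*, *WUS*, *LFY* and *AP1* among them, were listed at 0 in all 6 libraries. Of 4 root markers tested *UPB1*, a transcription factor of root growth, rose, with 3.80, 3.75 and 2.99 TPM, against 1.15, 0.914 and 0.520 TPM (1.29 ± 0.16, adjusted p = 0.00277). Markers of RNA breakdown and pathogens summed to 33.15 to 46.35 TPM, against 34.0 to 81.2 TPM. Of 6 tested the ribonuclease gene *RNS2* rose (0.65 ± 0.17, adjusted p = 0.0403), and *RNS1* was listed at 0 in all 6 libraries. Guard cell markers summed to 66.55 to 95.98 TPM, against 66.35 to 68.14 TPM, with none of 10 tested called by limma (2 at an unadjusted p under 0.05) or by edgeR, though 2 were called higher without biological replicate 2 and 2 without weed-free replicate 3. Epidermis and trichome markers summed to 123.6 to 165.8 TPM, against 116.6 to 123.3 TPM, so the groups nearly met. Among them *KCS10*, of cuticular wax synthesis, was higher (0.61 ± 0.15) and the trichome repressor *TRY* lower (−1.32 ± 0.29). Vascular markers summed to 407 to 503 TPM, against 456 to 521 TPM. Of 22 tested *WAT1*, a vacuolar auxin transporter, rose (1.13 ± 0.26) and *CLE41*, a phloem peptide gene (−0.73 ± 0.12), and *APL*, a phloem identity factor (−0.51 ± 0.12), fell. Of these marker calls *CLE41* and *UPB1* passed in all 6 omissions. The part of these shifts in the results above was not tested.

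Grass-reflected light was also set against LED far-red at the same R:FR. The light source, the chamber and any difference in the time of harvest cannot be told apart in this contrast, and clock genes differed: *ELF4* had 141, 143 and 439 TPM in biological low R:FR, against 3.86, 3.27 and 80.2 TPM under LEDs. Of 17784 genes 6658 (37.4%) were called, with 4240 above and 2418 below their level under LEDs. *HFR1* was lower with grass, with 31.6, 27.8 and 30.5 TPM, against 58.7, 59.6 and 54.1 TPM (−0.92 ± 0.15, adjusted p = 0.0015), and so was *PIL1* (−1.58 ± 0.19, adjusted p = 0.000376). *HB-2* had 77.5, 70.2 and 78.2 TPM, against 103.5, 99.7 and 75.4 TPM under LEDs (−0.29 ± 0.14, adjusted p = 0.12), and these groups overlapped. *PAR1* was higher with grass, with 45.8, 39.0 and 53.5 TPM, against 3.67, 3.80 and 11.2 TPM (2.85 ± 0.33, adjusted p = 0.000612), and so was *IAA29* (1.16 ± 0.22, adjusted p = 0.00293). *FSD1* was lower with grass, with 50.7, 58.8 and 73.7 TPM, against 416, 328 and 181 TPM (−2.25 ± 0.27, adjusted p = 0.000612), and *ST2A* was higher (1.37 ± 0.25, adjusted p = 0.00273). The libraries of grass-lit plants stood apart from those of LED-lit plants in each of these genes but *HB-2*.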

How the data were processed

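Total RNA of rosette leaves was sequenced from 9 pools (TruSeq RNA libraries). The deposited tables give, for each library, coverage, FPKM and TPM per gene, and the authors made a further table of normalised counts for the series. The submitters' processing notes name Bowtie2 2.4.3, HTSeq 0.13.5 and DESeq2 1.30.1; the program behind the deposited TPM and FPKM values, the strand setting of the counting and the genome annotation are not given in the sources used here. Deposited tables of the authors' own comparisons between groups (fold changes and p-values) were not used. The deposited coverage signal was read only to describe libraries. In the deposited normalised counts 100% of values were whole reads (tolerance 1e-06) after division by 1 step per library.

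For genes that reached 1 TPM in 3 or more libraries, limma 3.58.1 (R 4.3.3) was run on log2(TPM + 1), with trended and robust variance, 1 fit over all 9 libraries and no replicate term. An exact permutation test of 3 against 3 libraries cannot give a p under 0.1. Depth cannot be read from the deposited TPM values; the mapped reads that the study's text gives were not used here. Checks were limma on normalised counts and edgeR 4.0.16 (quasi-likelihood) on recovered reads; the script was tested on simulated data. Gene names and positions are from RefSeq TAIR10.1, which holds 17732 of the 17784 genes tested. Named genes were the 15 largest rises and 15 largest falls without overlap and with a mean of at least 5 TPM, up to 4 members of each list by adjusted p and any member called against its majority, the 8 genes of the study's table and the 10 most abundant called genes. The comparison, the 46 hand-made lists (1429 genes) and the 5 lists by annotation were chosen with earlier results of these data known.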

Additional observations from a re-analysis of the deposited data

Results flagged for a closer look

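Flagged here are 4 of the genes named above. In each, biological and artificial low R:FR differed from weed-free leaves past the threshold (limma, adjusted p under 0.05) but in opposite directions. How many of all tested genes did so is not given here. Between biological and artificial low R:FR 6658 of 17784 genes (37.4%) were called, so a difference between the sources is common. Both contrasts share the weed-free libraries, and the difference itself was tested as biological minus artificial. It was 5.69 on the log2 scale for *DRM1* (2.37 with grass and −3.32 with LEDs against weed-free), 3.62 for AT3G15450 (1.79 and −1.84), 3.39 for AT2G05540 (2.26 and −1.14) and −3.21 for *LHCB4.3* (−1.83 and 1.39). *DRM1* had 166, 152 and 241 TPM with grass, 1.39, 1.604 and 6.14 TPM with LEDs, and 23.1, 29.3 and 59.8 TPM in weed-free leaves. *LHCB4.3* had 23.59, 34.3 and 30.2 TPM with grass, 342.5, 300 and 208.8 TPM with LEDs, and 114, 104 and 99.5 TPM in weed-free leaves. Light source, chamber and time of harvest cannot be told apart here.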

How the results depend on the processing

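Against 1103 higher and 599 lower genes in biological low R:FR, testing every gene with a value gave 536 and 253, TMM rescaling 1363 lower and quantile normalisation 1185 lower. Leaving out 1 library of the comparison gave 156 to 2425 higher and 35 to 1129 lower. For biological against artificial low R:FR it gave 2163 to 4468 higher and 1580 to 2528 lower. With a replicate block 1384 genes were higher and 901 lower. Equal numbers deviated together in some pairs only (correlations 0.003, 0.208 and 0.27 between biological and weed-free replicates 1, 2 and 3, and 0.218, 0.166 and 0.307 between weed-free and artificial ones). Biological replicate 1 followed none of the weed-free replicates 1, 2 and 3 (0.003, 0.044 and −0.034). Some unequal numbers went against each other, with −0.302 for biological replicate 2 and weed-free replicate 3, and −0.204 for biological replicate 3 and weed-free replicate 2. Biological replicate 2 and weed-free replicate 1 gave 0.192. The study's text describes blocks but does not tie these libraries' numbers to them, so the numbers were not read as pairs. Normalised counts gave 167 higher and 160 lower by limma and 122 and 119 by edgeR. Of the calls, 726 could be tested there by limma; 603 had the same direction and 106 were called again, and edgeR called 92 of 680. Named genes that turned round in them, by limma and edgeR, were AT4G27450 (−0.87 and −0.83), *MES18* (0.13 and 0.12), *Cpn60beta2* (0.064 and 0.055), AT4G01870 (0.99 and 0.95; −0.18 to 0.074 when 1 library was left out), *DET2* (−0.20 and −0.13), *CESA3* (−0.17 and −0.32), *DELTA-TIP* (−0.39 and −0.38), *AOC2* (0.28 and 0.32), *LBD37* (−0.083 and −0.0003) and *UGT74C1* (0.29 and 0.27), and by limma alone *XTH31* (0.12) and *PORC* (0.020). The cause was not tested. Of the TPM values, 36 genes were listed at 0 in at least 1 library and at 10 TPM or more in another, and 1 of these was called.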
